A study of Mus musculus with 12 samples.

Results

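Exons of more than 300 nucleotides are uncommon inside mammalian genes, and the long exons that were scored as skipped or included in mouse liver are described here. A member was an exon skipping event of the rMATS splicing tables, that is, an exon with its upstream and downstream neighbour, that had the same coordinates in the fasted and the refed table, at least 10 inclusion plus skipping counts in every library, and an exon length above 300 nucleotides. Of 28447 events with enough counts, 724 (2.55%) were members, and they covered 641 exons of 590 genes. A further 87 long events were under the count minimum. The counts and the length chose the members, and their inclusion levels did not.

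RNA-Seq was performed on liver of male BALB/cByJ mice of 2 to 8 months of age that were homozygous for the Lpin1 fld (fatty liver dystrophy) mutation, a spontaneous mutation present in every cell of the body (Lpin1-/-), and of Lpin1+/+ littermates. Each genotype was studied after a 16-hour fast or after the same fast and 5 hours of refeeding, with 3 mice in each of the 4 groups. All groups had thus been fasted, and the refed mice were killed later in the day, so feeding state and time of day cannot be told apart. Lpin1 encodes lipin 1, a phosphatidate phosphatase of lipid synthesis that also acts with transcription factors in the nucleus.

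Lpin1 was read at 22.0, 0.726, and 1.76 RPKM in fasted Lpin1+/+ liver and at 0.0368 to 0.0597 RPKM in fasted Lpin1-/- liver, and at 0.784 to 2.92 and 0.00573 to 0.0238 RPKM in the refed genotypes, with no overlap of genotypes. The first fasted Lpin1+/+ library stood apart from the others of its group. Liver identity was checked with 5 hepatocyte genes, whose summed RPKM lay between 33900 and 76700 in the 12 libraries. The summed RPKM of 10 genes of other liver cells (Kupffer, endothelial, stellate, and biliary) ranged after fasting from 382 to 1060 (Lpin1-/-) and from 137 to 310 (Lpin1+/+), and after refeeding from 227 to 299 (Lpin1-/-) and from 118 to 1210 (Lpin1+/+), and no gene of either list was at 0 in all 3 libraries of a group. The sums of 1060 and 1210 rested largely on Lyz2, at 651 RPKM in fasted Lpin1-/- replicate 1 and 929 RPKM in refed Lpin1+/+ replicate 2. The other libraries of these groups had 18.6 to 109 RPKM of Lyz2. By limma none of the 10 genes passed the test between genotypes in fasted liver, and Dcn and Pecam1 were higher in Lpin1-/- liver after the libraries were rescaled by their median ratio. After refeeding of Lpin1-/- mice Clec4f, a gene of Kupffer cells, fell (log2 difference -1.28, SE 0.34, adjusted p = 0.0235, limma), and after rescaling Clec4f and Stab2 did. Fewer cells of a type and less RNA per cell cannot be told apart in whole tissue, and the part of these cells in the results below was not tested.

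Most internal exons are recognized as a unit, by factors bound at both of their ends and by serine- and arginine-rich (SR) proteins bound inside them, and a long exon places those ends far apart. An exon that is left out joins its neighbours directly, which removes a stretch of protein when the length is a multiple of 3 and otherwise shifts the reading frame. Some long exons work the other way. They hold an early stop codon, and a transcript that includes such an exon is a substrate of nonsense-mediated decay. Several genes of splicing factors carry exons of this kind.

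Both kinds are shown here, because they made up most of the largest called differences between genotypes in fasted liver. The first set is of exons with higher inclusion. Each line gives the bases around the first stop codon of the exon, with the stop codon in capitals. The reading frame was that of a protein-coding transcript that uses the upstream exon. The stop codons began at nucleotide 98 (Nktr), 142 (Tra2a), 24 (Snrnp70), 35 (Tial1), and 148 (Nprl3), counted from 1 at the start of the exon, in exons of 1688, 306, 1360, 377, and 302 nucleotides. Sequences are from GENCODE M21 transcripts on GRCm38, 5′ to 3′ in the direction of the transcript.
Nktr, exon chr9:121738388-121740075, plus strand: cctttgtttcttTAAtcctaatgttacatg
Tra2a, exon chr6:49252803-49253108, minus strand: agattggtcagaTAGaagcacttgaatatt
Snrnp70, exon chr7:45381825-45383184, minus strand: ctggcttgcagcTGAtgcttacgctcccct
Tial1, exon chr7:128446731-128447107, minus strand: gatcttgaaggcTAActgcaaggaactgtg
Nprl3, exon chr11:32238989-32239290, minus strand: tttcgtttttacTAAaatacatgtctttaa

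The second set is of coding exons with lower inclusion. Each line gives the junction that is formed when the exon is left out, with the end of the upstream exon in lower case and the start of the downstream exon in capitals, since reads across these junctions are the evidence for skipping.
Plekhm1, skipped exon chr11:103386958-103387348, minus strand: caggtctctgcaagaAAAGGCAAGAGCTGG
Edc3, skipped exon chr9:57715948-57716267, plus strand: agaagtcacctttcgGGTCATCTAGTAGCA
Ncoa6, skipped exon chr2:155405475-155408450, minus strand: caaaccggccaccagCCCCTTCACAGAATT
Zscan26, skipped exon chr13:21448167-21448484, minus strand: aaggaggagcttcagGACTCAGCCCAAAGA
Zscan21, skipped exon chr5:138124978-138125690, plus strand: cggttctgagtcacgGTCTCATCTCCTCCA
Epb41, skipped exon chr4:131937015-131937464, minus strand: cctactggagatggaCCTCCTCTGGTAAAG

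The long exons ranged from 301 to 7674 nucleotides, with a median of 536 against 114 for all events. There were 335 events of 301 to 500, 217 of 501 to 1000, and 172 of more than 1000 nucleotides. The longest were exons of Ank3 (7674 nucleotides), encoding ankyrin-G, of Apob (7467 nucleotides), encoding the main protein of very low density lipoprotein, and of Son (5970 nucleotides), encoding a nuclear speckle protein. Just above the length limit were exons of Irak1 (301), Esrp2 (302), and Nprl3 (302), and just below it exons of Upf2 (300), Igsf5 (300), and 1810043G02Rik (299). The excluded Upf2 exon had mean inclusion levels of 0.0126 in Lpin1+/+ and 0.357 in Lpin1-/- mice after fasting, and of 0.0263 and 0.0251 after refeeding. The included Irak1 exon had means of 0.96 and 0.905 after fasting and 0.969 and 0.917 after refeeding.

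Of the 641 exons, 640 matched a GENCODE M21 exon exactly. Annotation was read from transcripts that use the exon internally, and the first class that applied was taken. In that order, 327 (51.0%) exons were fully coding, 170 (26.5%) were partly coding, and 53 (8.27%) occurred in transcripts marked for decay. A further 16 (2.5%) were untranslated in coding transcripts, and 74 (11.5%) occurred in noncoding transcripts. Decay exons were 3.65% and noncoding-transcript exons 2.7% of the shorter exons, of which 42.1% were not in the annotation. An annotated first or last exon of the gene overlapped 60.5% of the long and 33.6% of the shorter exons, and reads of such an end can add to the inclusion count. Among exons described below, those of Nktr, Edc3, Ncoa6, Slc16a5, Zscan21, Epb41, and Ank3 had such an overlap. Those of Plekhm1, Zscan26, Tra2a, Snrnp70, Tial1, Nprl3, and Slco2b1 did not. The length was a multiple of 3 in 38.3% of long events and 39.6% of all events, and the median GC content of long exons was 51.7%.

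Inclusion level was the share of transcripts with the exon, from 0 to 1, with inclusion counts divided by the length that can yield them (exon length plus 68) and skipping counts by 68. Since inclusion counts held both exon body and junction reads, the 2 could not be separated. Per library, 1940504 to 4667985 counts fell on the long events, and 13030 to 18766 of these (0.402% to 0.735%) were skipping counts.

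The plot of mean inclusion by library shows the overall level. Over the 164 long events with a rarer form of at least 5 counts on average, mean inclusion was 0.584, 0.578, and 0.561 in fasted Lpin1+/+ libraries and 0.536, 0.544, and 0.54 in fasted Lpin1-/- libraries. After refeeding it was 0.573, 0.568, and 0.583 in Lpin1+/+ and 0.575, 0.58, and 0.572 in Lpin1-/- libraries. All 3 fasted Lpin1-/- libraries were thus below the other 9. The count filter used all libraries, so a mostly included exon could pass through its skipping in fasted Lpin1-/- liver alone. This favours a low level in that group, here and in the classes below. Over all long events, without the filter, mean inclusion was 0.849 to 0.859 in fasted Lpin1-/- and 0.875 to 0.882 in the other libraries. Over all events of any length it was 0.69 to 0.698 and 0.7 to 0.707. For the 68 events of fully coding exons, the fasted Lpin1-/- libraries gave 0.566, 0.578, and 0.58, and the others 0.622 to 0.655. The 26 events of decay exons gave 0.398, 0.328, and 0.362 in fasted Lpin1-/- and 0.332, 0.332, and 0.287 in fasted Lpin1+/+ libraries, and these ranges overlapped.

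**Figure D1:**
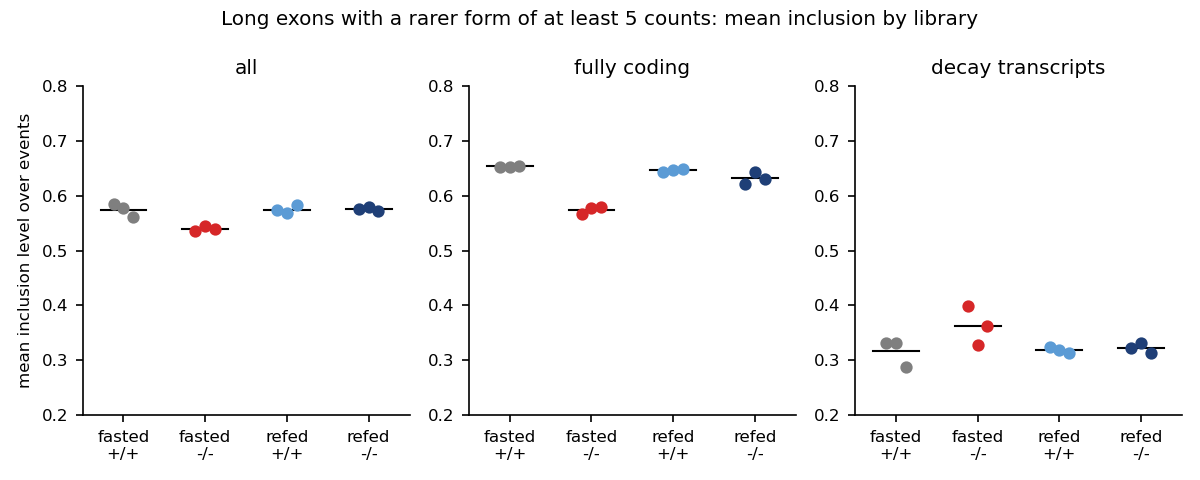
Mean inclusion level (0 to 1) of long exon events with a rarer form of at least 5 counts, for all events, fully coding exons, and exons of decay transcripts. Each point is 1 library and each line the mean of 3. The fasted Lpin1-/- points for fully coding exons (0.566 to 0.58) lie below all others. The count filter used all libraries, so an exon could pass it through skipping in fasted Lpin1-/- liver alone.

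Most long exons were nearly always included. The median inclusion was 0.991 in Lpin1+/+ and 0.972 in Lpin1-/- mice after fasting, and 0.988 and 0.987 after refeeding. Intermediate group means, between 0.1 and 0.9, were found for 169 long events in fasted Lpin1-/- liver, for 116 in fasted Lpin1+/+ liver, and for 111 (Lpin1+/+) and 113 (Lpin1-/-) after refeeding. Events with no skipping count in any library of the group numbered 197 (fasted) and 173 (refed) in Lpin1+/+ mice and 100 (fasted) and 105 (refed) in Lpin1-/- mice. Over long events the shares were 27.2%, 23.9%, 13.8%, and 14.5% in that order. Over all events they were 22.4% (fasted) and 21.4% (refed) in Lpin1+/+ mice and 8.55% (fasted) and 8.14% (refed) in Lpin1-/- mice. Counts over the long events were 2095646 to 3575507 in fasted Lpin1+/+ and 1940504 to 3474307 in fasted Lpin1-/- libraries. They were 2298325 to 2778036 in refed Lpin1+/+ and 3277640 to 4667985 in refed Lpin1-/- libraries. The part of depth in these shares was not tested.

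The genotypes were first compared in fasted liver, to ask whether the loss of lipin 1 altered the use of long exons during fasting. With limma on the log2 ratio of inclusion to skipping and adjustment over all 28447 events, 82 long events of 81 exons and 79 genes were called, with 72 lower and 10 higher in Lpin1-/- liver. The called share was 11.3% of long events against 16.4% of all events, for higher inclusion 10 of 724 against 5.11%, and for lower inclusion 72 of 724 against 11.3%. The median log2 difference was -0.66 over long events and -0.50 over all events. Where the rarer form had at least 5 counts on average in the libraries compared, 35 of 166 long events were called (21.1%, 7 higher and 28 lower), against 28.0% of all such events, with 11.1% higher and 16.9% lower. The remaining 47 calls rested on fewer counts, and in 34 of the 82 one genotype had no skipping counts at all, so that the ratio depended on the 0.5 added to each count.

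Called events with a difference in mean inclusion of at least 0.1 numbered 41, against 6.07% of all events. The 3 libraries of each group are listed in the splicing tables in an order that carries no replicate number. The called count was 54 without the first and 54 without the third listed fasted Lpin1+/+ library, and 51 without the first listed fasted Lpin1-/- library. Inclusion levels of the genotypes did not overlap for 126 long events, against 25.9% of all events, and 64 of these were among the calls.

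Among the exons with lower inclusion in fasted Lpin1-/- liver, 6 were taken up by size of the difference. Plekhm1, an adaptor for the fusion of lysosomes, had inclusion levels of 0.966, 0.849, and 1.0 for its 391-nucleotide exon in fasted Lpin1+/+ and 0.229, 0.448, and 0.564 in fasted Lpin1-/- liver. The log2 difference was -4.56 (SE 0.96, adjusted p = 0.00482, limma). The skipping counts were 2, 1, and 0 in fasted Lpin1+/+ and 11, 25, and 14 in fasted Lpin1-/- liver, so the call rests on few reads, while the genotypes did not overlap.

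Edc3 encodes an enhancer of mRNA decapping. Its 320-nucleotide exon had inclusion levels of 0.749, 0.796, and 0.743 in fasted Lpin1+/+ and 0.192, 0.337, and 0.34 in fasted Lpin1-/- liver (log2 difference -2.98, SE 0.66, adjusted p = 0.00642, limma). The refed values were 0.774, 0.756, and 0.774 in Lpin1+/+ and 0.724, 0.962, and 0.853 in Lpin1-/- liver. Only the fasted Lpin1-/- libraries were below 0.7.

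Ncoa6 encodes a coactivator of nuclear receptors with an exon of 2976 nucleotides. It was included at 0.974, 0.887, and 1.0 in fasted Lpin1+/+ and 0.437, 0.512, and 0.495 in fasted Lpin1-/- liver. The refed levels were 0.916, 0.935, and 0.953 in Lpin1+/+ and 0.906, 1.0, and 0.933 in Lpin1-/- liver. The genotypes did not overlap after fasting and overlapped after refeeding, and the log2 difference after fasting was -4.6 (SE 0.88, adjusted p = 0.00266, limma), from 2, 2, and 0 against 20, 34, and 31 skipping counts. The exon was scored in 2 events. The other event was not called in fasted liver, nor for refeeding of Lpin1-/- mice.

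Zscan26 and Zscan21 encode zinc finger proteins with a SCAN domain. The Zscan26 exon of 318 nucleotides was included at 0.956, 0.952, and 0.977 in fasted Lpin1+/+ and 0.602, 0.542, and 0.43 in fasted Lpin1-/- liver (log2 difference -4.29, SE 0.98, adjusted p = 0.00765, limma). The Zscan21 exon of 713 nucleotides, which is partly coding, was included at 1.0, 0.978, and 0.983 in fasted Lpin1+/+ and 0.381, 0.716, and 0.656 in fasted Lpin1-/- liver (log2 difference -5.33, SE 0.78, adjusted p = 0.000496, limma). Neither exon had a fasted Lpin1-/- library that reached the lowest library of another group.

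Slc16a5 encodes a monocarboxylate transporter. Its 813-nucleotide exon was included at 0.779, 0.864, and 0.912 in fasted Lpin1+/+ and 0.203, 0.562, and 0.662 in fasted Lpin1-/- liver (log2 difference -2.71, SE 0.69, adjusted p = 0.0142, limma). The same exon with another upstream neighbour had levels of 0.64, 0.819, and 0.664 and of 0.477, 0.765, and 0.685 in the same groups, which overlapped. The difference between the 2 events was not tested.

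**Figure D2:**
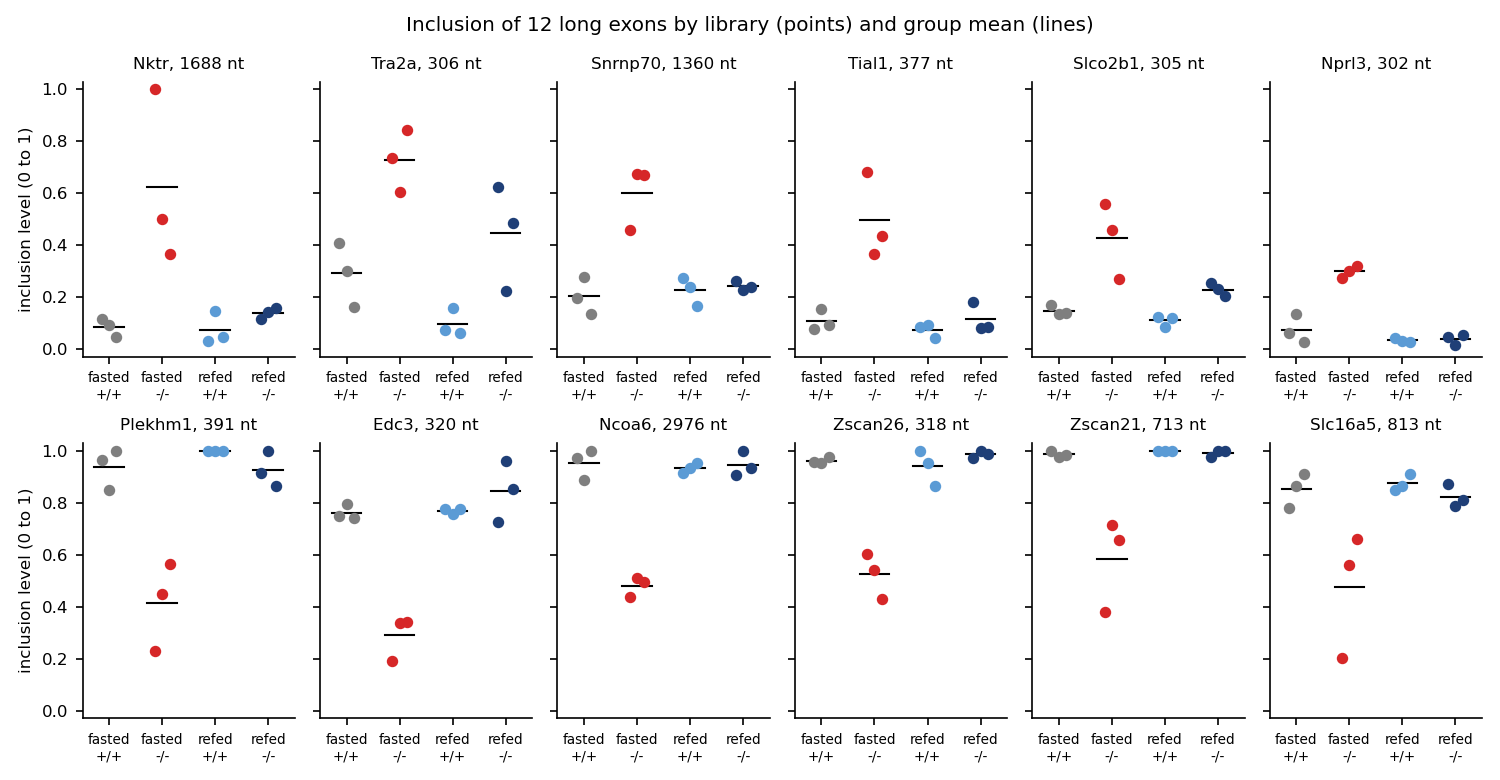
Inclusion level (0 to 1) of 12 long exons with the largest called differences between genotypes in fasted liver, 6 higher (upper panels) and 6 lower (lower panels) in Lpin1-/- mice. Points are libraries and lines are means of 3, and fasted Lpin1-/- points lie apart from fasted Lpin1+/+ points in every panel.

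Of the exons with higher inclusion in fasted Lpin1-/- liver, 5 of the 6 taken up carried the early stop codons shown above. All 6 had low mean inclusion in fasted Lpin1+/+ liver, from 0.0745 to 0.291. Nktr encodes a cyclophilin-related protein with an arginine- and serine-rich region. Its exon was included at 0.117, 0.0944, and 0.0462 in fasted Lpin1+/+ and 1.0, 0.502, and 0.367 in fasted Lpin1-/- liver (log2 difference 4.1, SE 0.85, adjusted p = 0.00428, limma). Skipping counts of 0, 4, and 4 in fasted Lpin1-/- liver leave the level of each of those libraries uncertain.

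Tra2a encodes an SR-like activator of splicing. Inclusion of its stop-containing exon was 0.407, 0.302, and 0.163 in fasted Lpin1+/+ and 0.734, 0.606, and 0.845 in fasted Lpin1-/- liver (log2 difference 2.84, SE 0.72, adjusted p = 0.014, limma). In refed liver it was 0.0725, 0.159, and 0.0626 in Lpin1+/+ and 0.625, 0.222, and 0.487 in Lpin1-/- mice, a log2 difference of 2.9 (SE 0.72) that did not pass the threshold (adjusted p = 0.0563, limma). The genotypes did not overlap in either state.

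Tra2a was also measured at the gene level, which played no part in the choice of exons. Its RPKM was 5.64, 3.62, and 4.98 in fasted Lpin1+/+ and 11.1, 10, and 8.39 in fasted Lpin1-/- liver, and rose by 0.92 on the log2(RPKM + 1) scale (SE 0.2, adjusted p = 0.00934, limma). In refed liver it was 12.4, 9.24, and 12.3 in Lpin1+/+ and 3.32, 3.47, and 2.72 in Lpin1-/- mice, with a log2 difference of -1.56 (SE 0.2, adjusted p = 0.00197, limma). The gene level thus differed in opposite directions in the fasted and refed states, whereas exon inclusion was higher in Lpin1-/- mice in both, by the call in fasted liver and by value in refed liver.

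Snrnp70 and Tial1 encode factors that act at the start of the intron, where U1-70K is a protein of the U1 particle and TIAR is an RNA binding protein that helps U1 to bind. The Snrnp70 exon was included at 0.196, 0.278, and 0.135 in fasted Lpin1+/+ and 0.46, 0.673, and 0.669 in fasted Lpin1-/- liver (log2 difference 2.63, SE 0.53, adjusted p = 0.00354, limma). It had 503 to 1906 inclusion counts and 27 to 288 skipping counts in these libraries. The Tial1 exon was included at 0.0785, 0.153, and 0.0925 in fasted Lpin1+/+ and 0.681, 0.367, and 0.436 in fasted Lpin1-/- liver (log2 difference 3.05, SE 0.61, adjusted p = 0.00345, limma). From a list of 23 splice site factors, 3 events were long, and these 2 were called (66.7%, against 16.4% of all events).

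At the gene level, RPKM of Snrnp70 was 24.5, 15.3, and 16.0 in fasted Lpin1+/+ and 17.3, 21.5, and 14.3 in fasted Lpin1-/- liver (log2 difference -0.05, SE 0.2, adjusted p = 0.878, limma). RPKM of Tial1 was 16.6, 16.8, and 15.6 against 24.2, 19.7, and 17.7 (log2 difference 0.3, SE 0.16, adjusted p = 0.231, limma). Neither gene level passed the test in fasted liver.

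Nprl3 encodes a subunit of a complex that restrains mTORC1. Its stop-containing exon was included at 0.0603, 0.135, and 0.0277 in fasted Lpin1+/+ and 0.273, 0.302, and 0.321 in fasted Lpin1-/- liver (log2 difference 2.65, SE 0.66, adjusted p = 0.013, limma). Slco2b1 encodes an organic anion transporter, and its 305-nucleotide exon is partly coding. Its inclusion was 0.169, 0.135, and 0.14 in fasted Lpin1+/+ and 0.557, 0.459, and 0.268 in fasted Lpin1-/- liver (log2 difference 2.07, SE 0.51, adjusted p = 0.0125, limma), without overlap. The Slco2b1 exon was scored in 4 events, not all of which were called, and these values are those of 1 event.

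Grouped by annotation, the direction of the fasted calls differed as the plot by annotation class shows. Of 362 fully coding long events, 39 were called and all 39 were lower in Lpin1-/- liver. Of 209 partly coding events, 5 were higher and 19 lower. Of 56 events of decay transcripts, 4 were higher (Nktr, Tra2a, Tial1, and Nprl3) and 7 lower. Of 80 events of noncoding transcripts, 1 (Snrnp70) was higher and 6 were lower. Among the shorter exons, 1910 of 2050 fully coding calls were lower and 100 of 158 decay calls were higher.

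**Figure D3:**
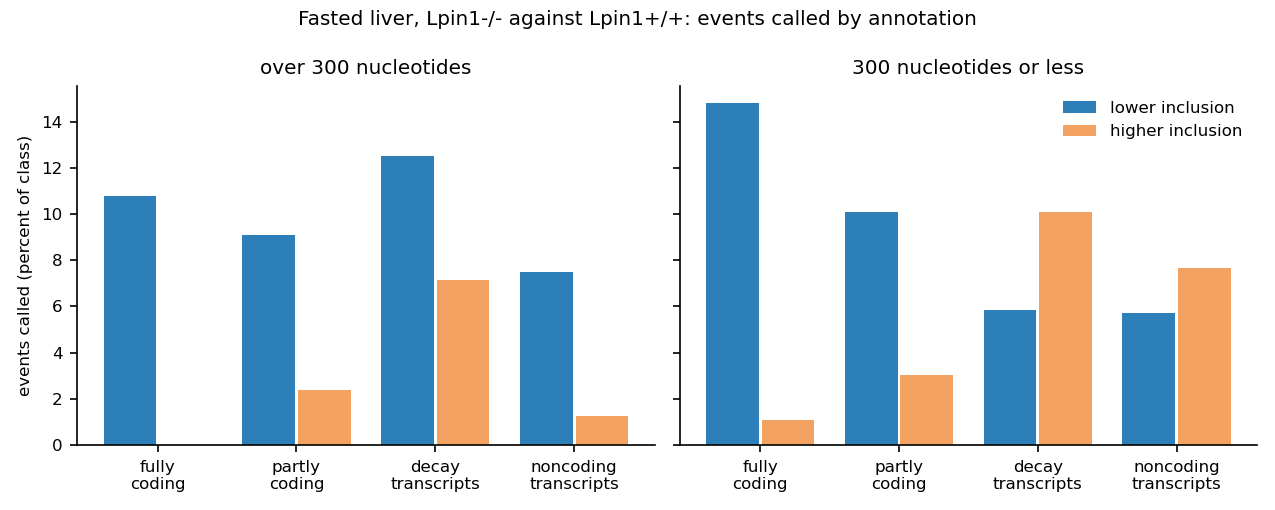
Share of events called in fasted liver (percent of the events of each annotation class), for exons over 300 nucleotides and exons of 300 nucleotides or less. Blue bars give lower and orange bars higher inclusion in Lpin1-/- mice, and no fully coding long exon was called higher.

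Where the reading frame could be followed, 38 of 331 long events without an in-frame stop codon were called and all 38 were lower. Of 138 with one, 6 were called higher and 12 lower. Over all events, 5.11% were called higher and 11.3% lower. Thus a stop codon in the frame that was followed was present in exons called in both directions. Stops at any position were counted, as at nucleotide 672 of the partly coding Rbm4 exon. The frame was that of 1 transcript with the upstream exon, and it can differ from the frame in which the exon is translated. The fully coding Esrp2 exon, with a stop at nucleotide 10, is such a case. The 138 are thus not all decay exons. Tm2d2, which encodes a transmembrane protein, had a 609-nucleotide decay exon that was lower. It was included at 1.0, 0.995, and 0.994 in fasted Lpin1+/+ and 0.717, 0.738, and 0.812 in fasted Lpin1-/- liver (log2 difference -5.56, SE 0.56, adjusted p = 8.37e-05, limma).

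By length, 47 of 335 events of 301 to 500 nucleotides, on 46 exons, were called in fasted liver. The called share was 9.22% for events of 501 to 1000 and 8.72% for events of more than 1000 nucleotides. The share was 17.5% for events of 151 to 200 and 17.1% for events of 201 to 300 nucleotides. Lower inclusion made up 48.6% of the calls for exons of 1 to 50 nucleotides, 85.1% of those for 301 to 500, and 80.0% of those for more than 1000. All 20 calls for exons of 501 to 1000 nucleotides were lower. These shares describe the tables and were not compared by a test, and long events had more counts than others (median mean total 728 against 394).

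**Figure D4:**
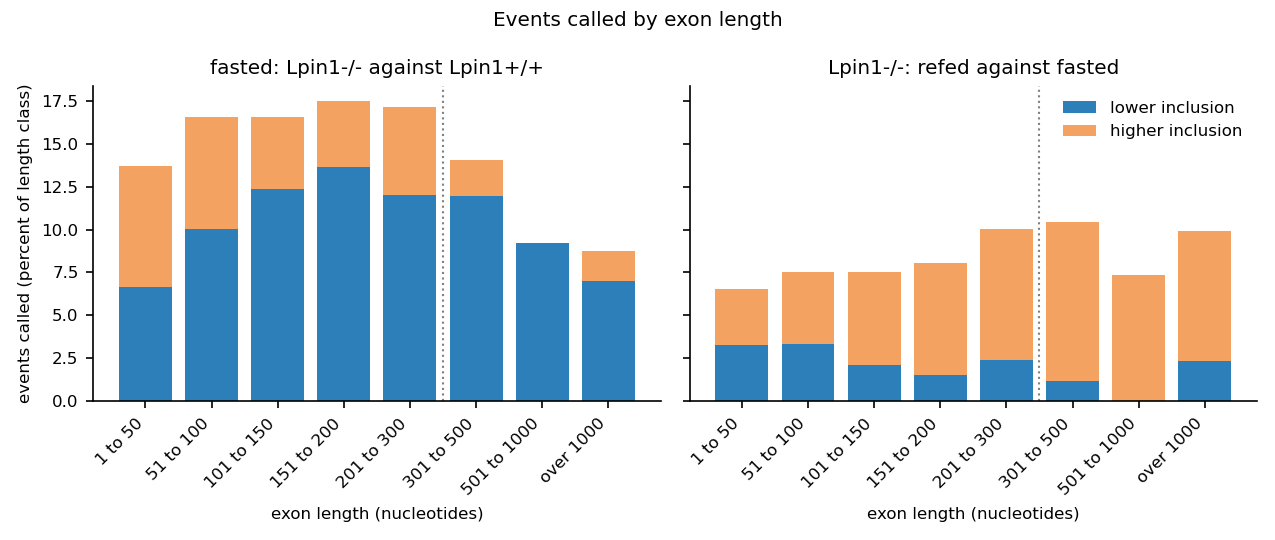
Share of events called (percent of the length class) by exon length in nucleotides, for Lpin1-/- against Lpin1+/+ in fasted liver and for refed against fasted Lpin1-/- liver. Blue is lower and orange higher inclusion, the dotted line marks 300 nucleotides, and the long classes hold mostly lower inclusion in the first contrast and mostly higher inclusion in the second.

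The gene lists were described by counts. Of 28 long events of zinc finger genes, 5 (17.9%) were called in fasted liver, all lower (Zscan21, Zscan26, Zfp638, and 2 of Zkscan1), against 11.3% of all events called lower and 16.4% called in either direction. The long exons of Zfp277, with means of 0.0625 and 0.0493, and of Zfp384, with means of 0.254 and 0.204, did not pass the test. Of 14 events of chromatin and genome maintenance genes, Ncoa6 and Prdm2 were lower and Esco1, which encodes a cohesin acetyltransferase, was higher. These were 21.4% of the list, against 16.4% of all events. The Esco1 exon of 2130 nucleotides was included at 0.859, 0.875, and 0.797 in fasted Lpin1+/+ liver and at 1.0 in all 3 fasted Lpin1-/- libraries (adjusted p = 0.00155, limma), on 6, 3, and 6 against 0, 0, and 0 skipping counts. Another event of the same Esco1 exon was not called. Mga (mean 0.84 and 0.663 in fasted Lpin1+/+ and Lpin1-/- liver) and Phf3 (0.967 and 0.959) did not pass the test.

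Of 26 events of RNA processing genes, Nktr and Tra2a were higher and Zfp638 was lower (11.5%, against 16.4% of all events). Srsf3, encoding an SR protein, was not called for its 456-nucleotide decay exon. Its inclusion was 0.211, 0.114, and 0.119 in fasted Lpin1+/+ and 0.283, 0.281, and 0.222 in fasted Lpin1-/- liver (log2 difference 1.08, SE 0.48, adjusted p = 0.141, limma), and the values did not overlap. The long exons of Hnrnpl, with means of 0.61 and 0.571, and of Matr3, with means of 0.684 and 0.758, had overlapping groups. Both genes encode nuclear RNA binding proteins.

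Of 23 events of cytoskeleton and scaffold genes, only Epb41 was called in fasted liver (4.35%, against 16.4% of all events). Epb41 encodes protein 4.1, which links spectrin and actin to the membrane. Its 450-nucleotide exon was included at 0.875, 0.916, and 0.846 in fasted Lpin1+/+ and 0.428, 0.575, and 0.686 in fasted Lpin1-/- liver (log2 difference -2.5, SE 0.54, adjusted p = 0.00577, limma). The skipping counts were 80, 12, and 46 against 93, 167, and 158. Another event of the same Epb41 exon was not called in fasted liver. RPKM of Epb41 was 41.3, 8.56, and 16.1 against 9.27, 23.9, and 27.1, with no difference that passed the test (adjusted p = 0.986, limma). The 3804-nucleotide exon of Mprip, a scaffold of myosin phosphatase, was rarely included in any group (means 0.0203 to 0.0238).

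Plasma protein genes held 11 long events, of which 3 (27.3%, against 11.3% of all events called lower) were lower in fasted Lpin1-/- liver. All 3 were exons of 632 nucleotides in the α-1 antitrypsin genes Serpina1b, Serpina1c, and Serpina1d. The inclusion of the Serpina1b exon was 0.999 in all fasted Lpin1+/+ libraries and 0.989, 0.988, and 0.99 in fasted Lpin1-/- liver. Skipping counts were 30, 20, and 25 against 123, 296, and 206 (adjusted p = 0.0189, limma), and the difference in mean inclusion was -0.00998. The 611-nucleotide exon of Serpina6, the corticosteroid-binding globulin gene, had means of 0.998 to 1.0 in the 4 groups. These genes are near-identical copies, as the ends of the exons show, with the exon in capitals and the next exon in lower case, and the assignment of reads among them is uncertain.
Serpina1b, exon chr12:103731961-103732592, minus strand: ACATTCTTTTTAAAGgcaaatggaagaagc
Serpina1c, exon chr12:103898758-103899389, minus strand: ACATTCTCTTTAAAGgcaaatggaagaagc
Serpina1d, exon chr12:103767416-103768047, minus strand: ACATTCTCTTTAAAGgcaaatggaaacagc

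Of other genes that the study examined, Esrp2, encoding an epithelial splicing regulator, has a 302-nucleotide exon that was almost always included (means 0.977 to 0.996). Its gene level was 28.1, 15, and 20.6 RPKM in fasted Lpin1+/+ and 7.69, 11.1, and 11.5 RPKM in fasted Lpin1-/- liver (log2 difference -0.98, SE 0.27, adjusted p = 0.0276, limma). The 302-nucleotide exon of Lpin2, a relative of Lpin1, was included at 0.99 or more on average in every group. The 682-nucleotide event of Rbm4, encoding an RNA binding protein, was included at 0.898, 0.772, and 0.815 in fasted Lpin1+/+ and 0.628, 0.716, and 0.625 in fasted Lpin1-/- liver (adjusted p = 0.0945, limma).

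The genotypes were compared again in refed liver, to ask which differences were present after a meal. Only 6 long events were called (0.829%, against 1.68% of all events), of which 4 were higher (0.404% of all events) and 2 were lower (1.27% of all events). The count was 3 without the first listed refed Lpin1-/- library. A total of 80 long events had an unadjusted p under 0.05, as did 4172 of all 28447 events, and 76 had genotypes that did not overlap, against 16.9% of all events. The median log2 difference was 0.03 over long events and -0.25 over all events, and over fully coding events it was 0.00412 for long and -0.419 for shorter exons. The higher calls, in Shroom1, Dclre1c, and 2 events of Ciart, rested on fewer than 5 counts of the rarer form and were named after their values were seen.

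Both lower calls in refed liver were also lower in fasted liver. The Tm2d2 exon had levels of 1.0 in all refed Lpin1+/+ libraries and 0.883, 0.896, and 0.894 in refed Lpin1-/- liver (log2 difference -5.17, SE 0.56, adjusted p = 0.00112, limma). Skipping counts of this exon were 0, 0, and 0 against 20, 25, and 21 in refed and 0, 1, and 1 against 90, 62, and 37 in fasted liver. The Serpina1b exon had 1, 12, and 1 against 168, 189, and 228 skipping counts (adjusted p = 0.00644, limma). RPKM of Tm2d2 was 66.2 to 127.0 in fasted Lpin1+/+ and 105.0 to 149.0 in fasted Lpin1-/- liver, and these ranges overlapped.

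Other large differences in refed liver are given as values only. The Ylpm1 exon of 2118 nucleotides was included at 0.514, 0.603, and 0.487 in refed Lpin1+/+ and 0.827, 1.0, and 0.839 in refed Lpin1-/- liver (adjusted p = 0.0774, limma). The Tbc1d9b exon of 326 nucleotides was included at 0.011, 0.0846, and 0.0276 against 0.162, 0.147, and 0.29 (adjusted p = 0.0564, limma). The Parp6 exon of 787 nucleotides was included at 0.6, 0.343, and 0.519 against 0.199, 0.252, and 0.272 (adjusted p = 0.179, limma). The Parp6 exon was lower in fasted Lpin1-/- liver as well, at 0.193, 0.131, and 0.173 against 0.35, 0.609, and 0.375 (adjusted p = 0.0229, limma).

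The events called in fasted liver were then followed into refed liver, whose libraries were not among those compared although all 12 shared the estimate of the spread, as the plot of both genotype differences shows. Of the 72 events lower in fasted Lpin1-/- liver, 49 (68.1%) were lower by value in refed Lpin1-/- liver, against 83.6% of all events lower in fasted liver, 2 were called there (2.78%), and 7 were lower by 0.1 or more. Of the 10 events higher in fasted liver, 9 were higher by value and 1, of Ciart, was called. The median log2 difference of the 72 was -3.24 in fasted and -0.43 in refed liver. For all 3214 events lower in fasted liver, the medians were -3.45 and -1.16, and 9.4% were called lower in refed liver.

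**Figure D5:**
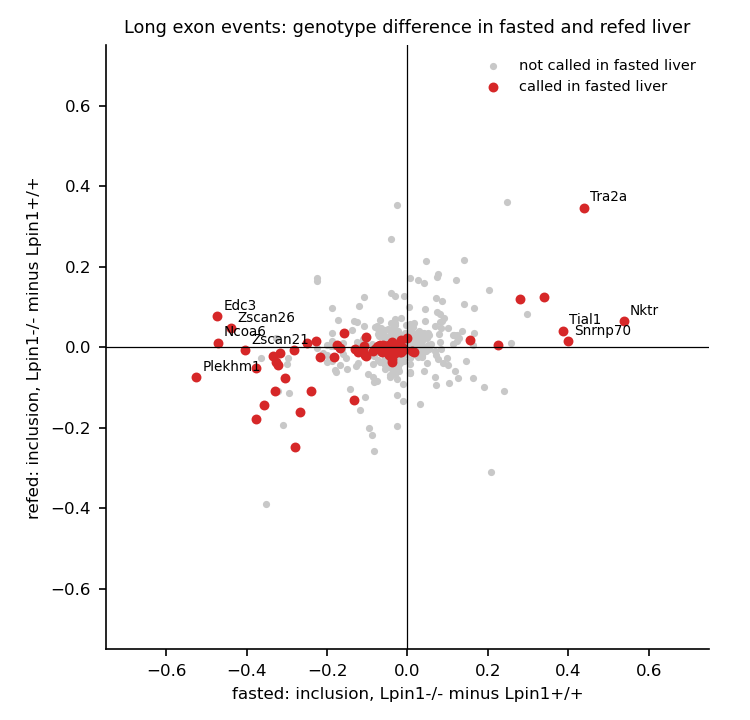
Difference in mean inclusion (Lpin1-/- minus Lpin1+/+) of the 724 long events in fasted liver (horizontal axis) and refed liver (vertical axis). Red points were called in fasted liver, and 10 of them (7 lower and 3 higher, Tra2a among them) also differed by 0.1 or more in the same direction in refed liver.

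Refeeding of Lpin1-/- mice was compared with fasting in the same genotype. Here 68 long events were called (9.39%, against 7.8% of all events), with 60 higher (5.31% of all events) and 8 lower (2.5% of all events) after refeeding. With at least 5 counts of the rarer form, 28 of 175 were called (21 higher and 7 lower), against 12.4% of all such events, 7.22% higher and 5.18% lower. A difference in mean inclusion of at least 0.1 was found for 34 of the calls (3.74% of all events). Fasted and refed levels did not overlap for 107 long events, against 19.7% of all events. The count of calls was 34 without the first and 42 without the second listed fasted Lpin1-/- library, and 30 without the second listed refed Lpin1-/- library. This contrast shares its fasted Lpin1-/- libraries with the fasted genotype contrast, so that the 2 results are not independent and their values are only set side by side.

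The Edc3 exon rose from 0.192, 0.337, and 0.34 to 0.724, 0.962, and 0.853 (log2 difference 4.11, SE 0.66, adjusted p = 0.00229, limma). The Zscan26 exon rose from 0.602, 0.542, and 0.43 to 0.973, 1.0, and 0.987 (adjusted p = 0.00236, limma), and the Ncoa6 exon from a mean of 0.481 to 0.946 (adjusted p = 0.00656, limma). The Plekhm1 exon rose from a mean of 0.413 to 0.926 (adjusted p = 0.0116, limma). Each of these exons was without overlap between fasted and refed Lpin1-/- liver.

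Zfp865 encodes a zinc finger protein and has overlapping exons of 2289 and 3217 nucleotides, which share skipping counts and most of their inclusion counts and are thus 1 observation. The shorter was included at 0.0883, 0.253, and 0.214 in fasted Lpin1-/- and 0.785, 0.567, and 0.469 in refed Lpin1-/- liver (log2 difference 2.94, SE 0.7, adjusted p = 0.0197, limma). In fasted Lpin1+/+ liver it was 0.61, 0.242, and 0.344, which overlapped with fasted Lpin1-/- liver. Of 28 long events of zinc finger genes, 7 (25.0%) rose after refeeding of Lpin1-/- mice, in 5 genes, against 5.31% of all events called higher. The 7 include both overlapping Zfp865 exons, so they are fewer than 7 separate observations and the share is raised by this.

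Inclusion of 4 stop-containing exons fell after refeeding. Tial1 fell from 0.681, 0.367, and 0.436 to 0.181, 0.0818, and 0.0831 (log2 difference -2.99, SE 0.61, adjusted p = 0.00854, limma). Nprl3 fell from a mean of 0.299 to 0.0383 (adjusted p = 0.0049, limma), Snrnp70 from 0.601 to 0.242 (adjusted p = 0.0178, limma), and Nktr from 0.623 to 0.139 (adjusted p = 0.0301, limma). Tra2a had means of 0.728 and 0.445 and overlapped between states (adjusted p = 0.13, limma).

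Ank3 also fell, from a low level. Its exon of 7674 nucleotides, the longest of all, was included at 0.0759, 0.0534, and 0.0461 in fasted Lpin1-/- and 0.00356, 0.00983, and 0.00871 in refed Lpin1-/- liver (log2 difference -3.12, SE 0.65, adjusted p = 0.00981, limma). An overlapping exon of 2550 nucleotides was included at 0.106, 0.0676, and 0.0441 and at 0.00645, 0.00895, and 0.0121 (adjusted p = 0.00934, limma). Both share 20, 19, and 18 skipping counts in fasted Lpin1-/- liver and are 1 observation, as is seen where they start, with the upstream exon in lower case and the skipped exon in capitals. The longer exon lacks the first bases of the shorter one.
Ank3, exon of 2550 nucleotides, chr10:69986083-69988632, plus strand: ctgaacccagcatgaAAACAGTTGAACGGA
Ank3, exon of 7674 nucleotides, chr10:69986089-69993762, plus strand: ctgaacccagcatgaTTGAACGGAGTTCAG

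In Lpin1+/+ mice, refeeding changed no long event by limma at the threshold (0 of 724, against 0.0% of all events), and 36 long events had an unadjusted p under 0.05, as did 1459 of all 28447 events. Fasted and refed levels did not overlap for 47 long events, against 7.45% of all events. By size of the difference, Wiz, Ylpm1, Tra2a, and Slc16a5 are given as values only. Wiz is a zinc finger gene. The Wiz exon of 390 nucleotides was included at 0.889, 1.0, and 1.0 in fasted and 0.477, 0.747, and 0.592 in refed Lpin1+/+ liver (adjusted p = 0.407, limma). The Ylpm1 exon was included at 0.822, 0.882, and 0.821 in fasted and 0.514, 0.603, and 0.487 in refed Lpin1+/+ liver (adjusted p = 0.936, limma). Tra2a had means of 0.291 and 0.0979, and the second Slc16a5 event had 0.707 and 0.514.

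Whether the genotype difference itself depended on feeding was asked with the interaction. It was called for 1 long event (0.777% of all events were called), and 95 long events had an unadjusted p under 0.05, as did 3839 of all 28447 events. This was an exon of 344 nucleotides in St3gal5, which encodes the synthase of the ganglioside GM3. The exon was scored in 3 events, and only this 1 was called. After fasting, skipping counts were 0 in all Lpin1+/+ libraries and 44, 34, and 29 in Lpin1-/- libraries. After refeeding, they were 0, 3, and 0 in Lpin1+/+ and 1 in each Lpin1-/- library. The interaction was 6.43 on the log2 scale (SE 1.4, adjusted p = 0.0462, limma), although mean inclusion was between 0.983 and 1.0 in every group. The call was lost in 12 of 17 alternatives, with an adjusted p of up to 0.224 (limma). For exons with large differences in inclusion the interaction missed the threshold, with adjusted p of 0.0607 for Edc3, 0.0608 for Ncoa6, 0.149 for Snrnp70, 0.227 for Tial1, and 0.317 for Nktr (limma). For these exons a difference between the fasted and the refed genotype effect was thus not shown.

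Gene levels of the hosts were a readout that the choice of exons did not use. Of 590 host genes, 565 were expressed at a mean RPKM of at least 0.5. In fasted liver 101 were called by limma, with 18 higher and 83 lower in Lpin1-/- mice, against 18.8% of all genes, and after rescaling of the libraries by their median ratio 37 were higher and 64 lower. The count was 52 without fasted Lpin1+/+ replicate 3. In refed liver 33 were called (13 higher and 20 lower, against 6.67% of all genes, and 22 and 18 after rescaling). The count was 18 with the replicate number as a block, and 11 to 19 when any 1 of the refed libraries was left out. Refeeding of Lpin1-/- mice gave 130 calls (117 higher and 13 lower, against 20.7% of all genes, and 67 and 24 after rescaling), and refeeding of Lpin1+/+ mice gave 7 (against 1.72%, and 2 after rescaling). The 130 became 74 without fasted Lpin1-/- replicate 1, and 84, 69, and 84 without refed Lpin1-/- replicates 1, 2, and 3. The 7 became 0 to 10 without 1 library. The rescaling moved the median log2 difference of all genes from -0.143 to 0.0144 in fasted liver and from 0.25 to -0.0284 for refeeding of Lpin1-/- mice.

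Of the 70 genes that hosted an exon with lower inclusion in fasted Lpin1-/- liver, 15 were lower and 0 higher at the gene level in the same contrast, against 1520 lower and 648 higher of 11507 genes, and 14 were lower and 1 higher after rescaling. Zscan21 was measured at 6.3, 5.26, and 5.88 RPKM in fasted Lpin1+/+ and 1.73, 1.93, and 3.16 RPKM in fasted Lpin1-/- liver (log2 difference -1.08, SE 0.19, adjusted p = 0.00326, limma). The gene levels of Ncoa6 (adjusted p = 1.0), Plekhm1 (adjusted p = 0.928), Zscan26 (adjusted p = 0.229), Edc3 (adjusted p = 0.0615), and Slc16a5 (adjusted p = 0.123) did not pass the test by limma.

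The levels of factors that recognize exons were read from 2 lists. Of 23 splice site factors, Luc7l, Rbm17, and Sf3b1 were higher and Luc7l3 was lower in fasted Lpin1-/- liver (17.4%, against 18.8% of all genes). After rescaling 6 were higher and 1 lower (30.4%, against 19.6% of all genes). Of 17 proteins that bind exonic enhancers or associate with them, Srsf5, Srsf7, Tra2a, and Tra2b were higher and Srsf1 was lower. These were 29.4% of the list, against 18.8% of all genes. After rescaling 5 were higher and 1 lower (35.3%, against 19.6% of all genes). Refeeding of Lpin1-/- mice gave 9 higher and 1 lower among the splice site factors (4 and 1 after rescaling) and 5 higher and 2 lower among the enhancer binders (4 and 3 after rescaling). In refed liver only Tra2a, which was lower in Lpin1-/- mice, was called from both lists, against 6.67% of all genes. The part of these levels in exon inclusion was not tested.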

How the data were processed

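RNA was isolated from 12 snap-frozen livers, 1 per mouse, and stranded libraries were sequenced as paired ends over several lanes. Per the submitters' processing notes and the study's methods, reads were aligned to GRCm38 with HISAT2 2.0.5, counted with HTSeq 0.6.0 and tested with DESeq2 1.20.0. The authors deposited gene levels as RPKM, and skipped exon tables from rMATS with inclusion and skipping counts per library and the effective length of each form. The version of rMATS is not given in the sources used here. The columns of p, FDR, inclusion level, and inclusion difference that the authors computed were not used, nor were 3 subset tables, of which 1 holds a gene ontology table. The subset table of fasted against refed Lpin1+/+ liver served to check the library lists, whose counts were identical for 1524 of 1524 fasted and 1719 of 1719 refed shared events.

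The fasted and refed tables were joined on exon and flanking coordinates (34416 events), and 28447 had at least 10 counts in each library. The log2 ratio of length-scaled inclusion to skipping, with 0.5 added to each count, was tested with limma 3.58.1 in R 4.3.3 (12 libraries, 4 groups, 5 contrasts, variance trend, Benjamini-Hochberg adjustment over 28447 events, threshold 0.05). RPKM was tested as log2(RPKM + 1) over 11507 genes with a mean of at least 0.5, and a fold change on this scale understates that of low genes. The groups came from the sample titles. Same-numbered RPKM samples of the 2 refed groups deviated together (correlations 0.186, 0.297, and 0.162), and the block count is given beside that result. In the other comparisons made at least 1 pair was under 0.1. The correlations were -0.474, -0.374, and -0.226 between the fasted genotypes, and -0.441, -0.204, and -0.209 between fasted and refed Lpin1-/- samples. Fasted Lpin1+/+ and refed Lpin1-/- samples, which were not compared directly, had higher correlations of 0.743, 0.545, and 0.39. Alternatives were 1 added to each count, precision weights, other count minimums, a minimum difference or rarer form, 1 event per exon, only the 6 libraries compared, and a longer length limit. For RPKM they were a pseudocount of 0.1, no filter, rescaling, and the block. Each library was also left out. The closing section gives those that moved a count by over 1.5 times.

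The exons named were, per contrast, up to 6 in each direction with the largest difference in inclusion among calls with groups that did not overlap and a rarer form of at least 5 counts. Where fewer than 4 passed, 4 were given as values, with a rarer form of at least 10 counts. Others were the 3 longest, the 3 on each side of the length limit, up to 4 per gene list with the most counts of the rarer form, and those of genes that the study names. The members, the lists, and this rule were chosen with earlier results of these data known. Exon classes were read from GENCODE M21. Precision depends on the skipping counts, which were few for many events.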

Additional observations from a re-analysis of the deposited data

Results flagged for a closer look

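The genotype difference of the 344-nucleotide exon of St3gal5 differed between fasted and refed liver by the interaction term, which was 6.43 on the log2 scale (SE 1.4, adjusted p = 0.0462, limma). The genotype difference was -5.38 in fasted and 1.05 in refed liver. Fasted Lpin1+/+ libraries had no skipping counts, so the size of these values depends on the 0.5 added to each count. The interaction did not pass the threshold in 12 of 17 alternatives, with adjusted p from 0.0177 to 0.224 over all of them.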

How the results depend on the processing

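Of 173 alternative counts of calls, 117 were within 1.5 times the reported count and 56 were not. The 82 calls in fasted liver became 41 with a difference in inclusion of at least 0.1, 35 with a rarer form of at least 5 counts, 35 for exons above 500 nucleotides, and 51 to 95 when 1 library was left out. The 6 calls in refed liver became 11 with 1 added to each count, 10 with precision weights, 2 with the difference of 0.1, 2 with the rarer form of 5, 3 above 500 nucleotides, and 3 to 7 without 1 library. The 68 calls for refeeding of Lpin1-/- mice became 106 with precision weights, 34 with the difference of 0.1, 28 with the rarer form of 5, 29 with only the 6 libraries compared, 33 above 500 nucleotides, and 30 to 86 without 1 library. Refeeding of Lpin1+/+ mice gave 0 under every alternative run. The single interaction became 8 with 1 added, 7 with a minimum of 20 counts, 7 with a minimum of 50, 0 with no minimum, 0 with the difference of 0.1, 0 above 500 nucleotides, and 0 to 8 without 1 library. The cause of these shifts was not tested beyond the smaller number of events or libraries that the filters leave. The share of lower inclusion among fasted calls stayed between 80.0% and 91.4%.

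For named exons, 668 of 745 alternatives kept direction and side of the threshold, 77 missed the threshold, and 0 changed direction. Refeeding of Lpin1-/- mice was the least stable for Slc16a5, whose call was lost in 11 of 18 alternatives (adjusted p up to 0.155), and Nktr, in 7 of 18 (up to 0.142).

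Among host genes, leaving out 1 library gave 52 to 117 calls in fasted liver (52 without fasted Lpin1+/+ replicate 3), 11 to 46 in refed liver, 69 to 174 for refeeding of Lpin1-/- mice (69 without refed Lpin1-/- replicate 2), and 0 to 10 for refeeding of Lpin1+/+ mice, which gave 2 after rescaling. With the replicate number as a block, the counts were 84, 18, 116, and 4, against 101, 33, 130, and 7 without the block. Of the groups compared, same-numbered samples deviated together in every pair between the 2 refed groups, and not in every pair of the other comparisons. No paired analysis was made for exon events because the lists of counts carry no replicate numbers. The planned count test on inclusion and skipping counts was not run.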
